A study of Mus musculus with 6 samples.

Results

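The genes of the spliceosome and of RNA splicing factors were examined in E18.5 mouse lungs, taken whole from embryos late in gestation. They were the 80 rows, of 55359 in the deposited gene table, whose symbols name Snrp, Lsm, Srsf, Hnrnp, Sf3a or Sf3b, U2af or Prpf genes. All 80 also met the minimum of a mean count of 10 over the libraries, and all 80 were among the 17728 genes with enough counts to be tested. Symbols ending in -ps were left out by the rule, but one pseudogene, Snrpert, came in under its own symbol. The table describes it as a pseudogene of the small nuclear ribonucleoprotein E gene.

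Poly(A) RNA was sequenced from 3 lungs labelled WT and 3 labelled Prmt5 knockdown, all of strain C57. The series text describes a knockout of Prmt5 in lung tissue that is specific to mesenchyme and to Dermo1, another name of Twist2, while the sample labels use the word knockdown. The labels do not say whether the wild type embryos carried a Cre or floxed allele, or from how many litters the embryos came, so p-values cover only the sample-to-sample spread, part of which may be technical. Library totals ranged from 14383415 to 19262837 counts. Lung markers were present in every library. Summed CPM (counts scaled to a common library total) of 8 epithelial markers, Sftpc among them, ranged from 13126 to 16408, and that of 8 mesenchymal markers from 5213 to 7129. Both sexes were present in each group by Xist and Ddx3y, with 1 of 3 wild type and 2 of 3 knockdown-labelled embryos male.

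Spliceosomes are built from small nuclear RNAs, each wrapped by a ring of Sm or Lsm proteins, and from many further proteins that join and leave during each splicing reaction. Prmt5, with its partner Wdr77, adds symmetric dimethyl groups to arginines in the tails of the SmB, SmD1 and SmD3 proteins, and the SMN complex then loads the Sm ring onto the RNA. SR proteins (Srsf genes) and hnRNPs bind the pre-mRNA and steer splice site choice. In RNA of a whole organ, fewer cells of a type and less RNA per cell cannot be told apart.

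The targeted gene came first. Prmt5 stood at 46.7, 47.3 and 48.3 CPM in wild type replicates 1 to 3 against 39.6, 47.8 and 46.9 CPM under the knockdown label. The groups overlapped, and the log2 fold change of -0.08 (95% interval -0.29 to 0.13) did not pass edgeR's quasi-likelihood test (Benjamini-Hochberg adjusted p = 0.682). The second group is therefore called knockdown-labelled, and each direction rests on the label. The series text describes a knockout specific to mesenchyme, while the lungs were sequenced whole. Levels of Prmt5 or of the splicing genes in mesenchyme alone were not measured.

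None of the 80 splicing genes passed the test between the groups. Of the 80, 0 reached an adjusted p under 0.05 in edgeR, where 0.0338% of all tested genes did (0.00564% higher and 0.0282% lower), and the smallest adjusted p was 0.211. DESeq2 and limma also called 0 of them. At an unadjusted p under 0.05 there were 6 of 80, or 7.50%, 3 higher and 3 lower in the knockdown-labelled lungs, where 17.0% of all tested genes passed (8.48% higher and 8.52% lower). Log2 fold changes ran from -0.29 (Lsm11) to 0.31 (Lsm4), with 38 positive and 42 negative. Their median was -0.003, beside 0.01 over all genes tested.

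The intervals were narrow for most of the genes. The 95% interval of the fold change lay inside a 1.5-fold difference in either direction for 74 of the 80, and 53.4% of all tested genes had such an interval, or 73.8% of those with a mean count of at least 100. The 6 with wider intervals were Srsf12, U2af1l4, Lsm5, Hnrnph3, Snrpn and Snrpert. Replicates lay close together. Within a group the SD of log2 CPM had a median of 0.089 over the 80 genes and of 0.18 over all tested genes. Among genes with a mean count of at least 100 it was 0.0849 for 76 of the 80 and 0.135 for 12484 genes.

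**Figure D1:**
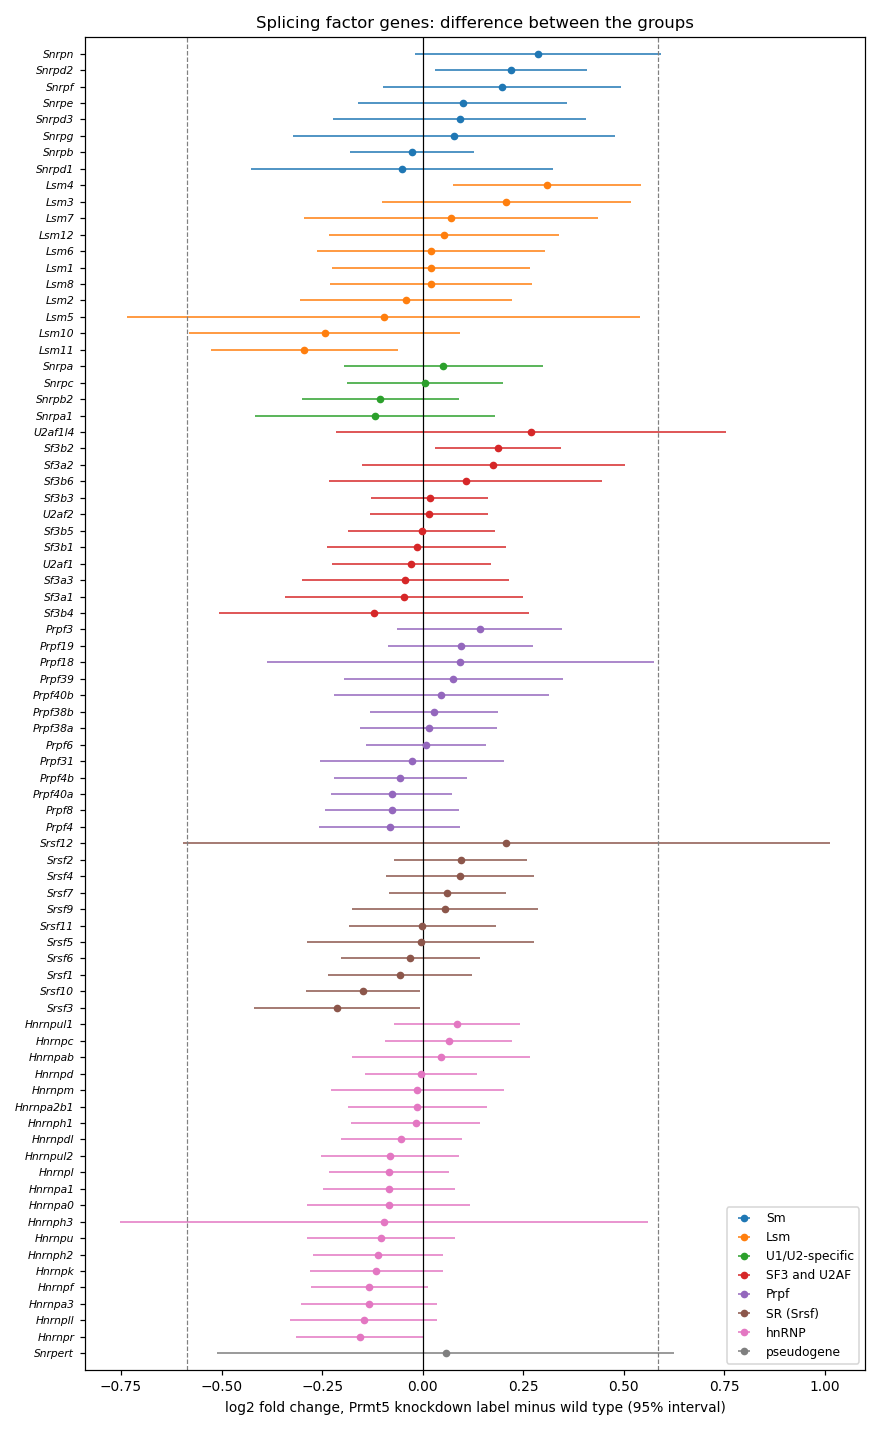
Log2 fold change between the knockdown-labelled and wild type groups (x axis) for each of the 80 genes (rows, coloured by gene group), with 95% intervals as bars from edgeR, n = 3 libraries per group. Dashed lines mark a 1.5-fold difference, and 6 intervals reach past one of them.

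Per length, the levels of the splicing genes spanned a wide range. FPKM, a count divided by exonic length and library total, averaged over the 6 libraries, was highest for Srsf5 (207), Hnrnpa2b1 (155), Hnrnph1 (128) and Hnrnpab (117). It was lowest for Srsf12, an SR-related gene, at 0.407. The median level was 53.0 FPKM over the hnRNP genes and 45.4 over the SR genes, above the 13.3 of the Sm and the 6.17 of the Lsm genes. Of the Sm genes Snrpb led with 42.2 FPKM and Snrpg was last with 4.70, and of the Lsm genes Lsm4 led with 27.1 and Lsm11 was last with 2.78. Prpf8, the large core protein of the U5 particle, stood at 43.0 ± 0.295 FPKM and Snrpb at 42.5 ± 1.79 in wild type (SD, n = 3 each), a difference smaller than the SD of Snrpb but not that of Prpf8. FPKM depends on the deposited exonic size, which was 22199 bases for Hnrnpr, the hnRNP gene with the lowest FPKM (7.91). Copies of Snrpe and Snrpg elsewhere in the genome may share reads with them, and how such reads were counted is not given in the sources used here.

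**Figure D2:**
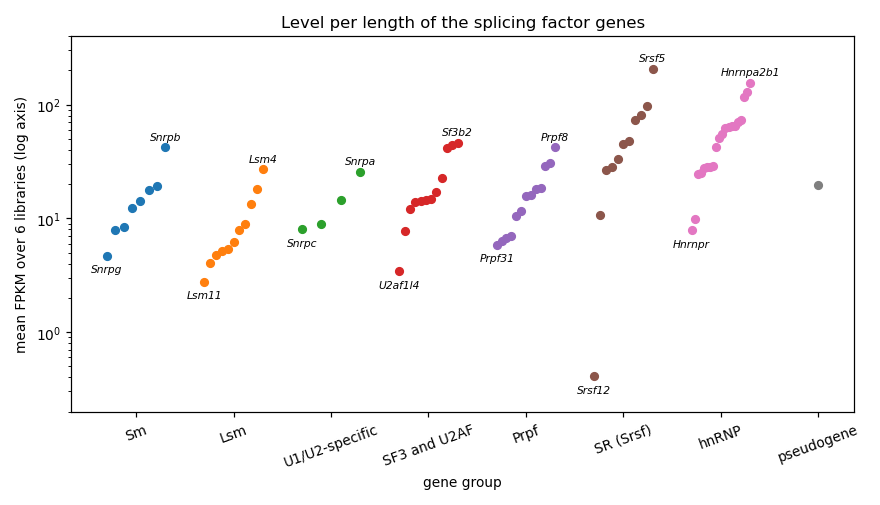
Mean FPKM over the 6 libraries (y axis, log scale) of each gene, ordered by level within its group (x axis). The highest and lowest gene of each group is named, from Srsf5 at 207 down to Srsf12 at 0.407.

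The promoters of these genes were compared for short motifs, since they are widely used genes whose start regions can be set beside those of other expressed genes. RefSeq windows from 250 bases before to 50 after a start (GRCm38.p6) matched 67 of the 80 genes by symbol, with 90 windows. The ETS motif CCGGAAG stood on either strand in 28.9% of these windows, in 15.1% of 15954 windows of tested genes and in 8.86% of all 32851 windows. The SP1 motif GGGCGG was in 67.8%, 57.9% and 35.7% of them, and the CCAAT box CCAAT in 46.7%, 36.9% and 37.4%. TATAAA was in 7.78%, 8.03% and 13.6%. The NRF1 motif GCGCATGC was in 7.78%, 4.44% and 2.71%, the YY1 motif AAGATGGC in 5.56%, 3.74% and 2.75%, and the CRE motif TGACGTCA in 3.33%, 2.70% and 1.79%. No motif of the set contains another, though matches of different motifs can share bases, and some genes have several windows that overlap. The median GC content was 60.3% in the windows of splicing genes and 59.7% in those of tested genes, with 25 and 18 CG dinucleotides per window. Windows of tested genes thus had about the same GC content but fewer CG dinucleotides. These shares are a description, with no test.

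The upstream 250 bases of 4 genes are shown in the 5′ to 3′ direction of the gene, with each motif found in capitals. Snrpd2, Sf3b2 and Lsm11 are among the genes with the smallest p in the comparison, and Snrpg holds an ETS, a CCAAT and a CRE motif together.
Snrpd2 (chr7:19149588-19149837, plus strand): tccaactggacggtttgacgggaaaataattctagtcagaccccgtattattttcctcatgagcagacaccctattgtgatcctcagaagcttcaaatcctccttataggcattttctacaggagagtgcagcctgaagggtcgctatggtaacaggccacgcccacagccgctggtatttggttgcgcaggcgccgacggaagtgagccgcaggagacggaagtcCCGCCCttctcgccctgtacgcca
Snrpg (chr6:86371290-86371539, plus strand): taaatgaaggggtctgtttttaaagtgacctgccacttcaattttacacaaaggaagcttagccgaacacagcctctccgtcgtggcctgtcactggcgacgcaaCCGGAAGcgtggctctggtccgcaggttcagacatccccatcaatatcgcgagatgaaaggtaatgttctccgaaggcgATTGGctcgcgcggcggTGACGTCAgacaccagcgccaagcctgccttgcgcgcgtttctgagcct
Sf3b2 (chr19:5295456-5295705, minus strand): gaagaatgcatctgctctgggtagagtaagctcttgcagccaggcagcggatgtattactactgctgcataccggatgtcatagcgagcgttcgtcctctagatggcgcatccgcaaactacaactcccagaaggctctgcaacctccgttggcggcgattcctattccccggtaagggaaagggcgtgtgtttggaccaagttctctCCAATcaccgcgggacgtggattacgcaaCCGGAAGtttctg
Lsm11 (chr11:45944936-45945185, minus strand): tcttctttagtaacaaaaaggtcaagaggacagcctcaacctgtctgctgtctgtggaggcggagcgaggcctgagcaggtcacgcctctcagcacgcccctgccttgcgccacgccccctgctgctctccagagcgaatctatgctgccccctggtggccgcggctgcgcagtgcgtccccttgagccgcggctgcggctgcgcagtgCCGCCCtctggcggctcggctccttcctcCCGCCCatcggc
The capitals mark the SP1 motif in Snrpd2, the ETS, CCAAT and CRE motifs in Snrpg, the CCAAT and ETS motifs in Sf3b2 and a pair of SP1 motifs in Lsm11, on either strand. A match is not evidence of binding.

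The Sm genes, which encode the ring that Prmt5 prepares for assembly, had 0 of 8 called. Of the 8, 6 were positive and 2 negative, and the median log2 fold change was 0.10. Snrpb, which encodes the Prmt5 substrate SmB (chromosome 2, 130013555 to 130021323 in the table's coordinates), stood at 80.3, 76.1 and 81.0 CPM in wild type, against 76.0, 80.6 and 76.4 CPM under the knockdown label. The groups overlapped, and the log2 fold change was -0.03 (95% interval -0.18 to 0.13). Snrpd3, for the substrate SmD3, had 44.4, 36.9 and 42.3 against 36.3, 45.4 and 50.01 CPM, and Snrpd1, for the substrate SmD1, 38.0, 31.0 and 43.4 against 29.7, 40.0 and 38.8 CPM. Both spread widely inside each group. Their log2 fold changes were 0.09 (-0.22 to 0.41) and -0.05 (-0.43 to 0.32), so differences inside those bounds were not excluded. Gucd1 overlaps Snrpd3 on the other strand, with a mean count of 599.5 beside 684.2. No strand setting is given, so the counts of Snrpd3 are uncertain.

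Snrpd2, whose product SmD2 pairs with SmD1 in the ring, had the smallest p of the Sm genes. It stood at 36.3, 31.8 and 35.8 CPM in wild type, against 41.1, 41.5 and 38.4 CPM under the knockdown label. Each knockdown-labelled value was above each wild type value. The log2 fold change of 0.22 (standard error 0.08) had an unadjusted p of 0.0291 and an edgeR adjusted p of 0.246. Snrpe stood at 11.2, 10.8 and 11.5 against 11.7, 11.9 and 12.3 CPM, also without overlap, but with a log2 fold change of 0.10 (-0.16 to 0.36). Snrpf had 14.5, 15.3 and 16.8 against 15.4, 18.7 and 19.3 CPM, and Snrpg 7.42, 6.50 and 7.69 against 6.92, 8.92 and 7.02 CPM. Both overlapped, with log2 fold changes of 0.20 (-0.10 to 0.49) and 0.08 (-0.32 to 0.48). Summed over the 8 Sm genes, the level was 242 ± 14.9 CPM in wild type and 254 ± 18.0 CPM in the knockdown-labelled lungs (SD, n = 3 each), a difference smaller than either SD.

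**Figure D3:**
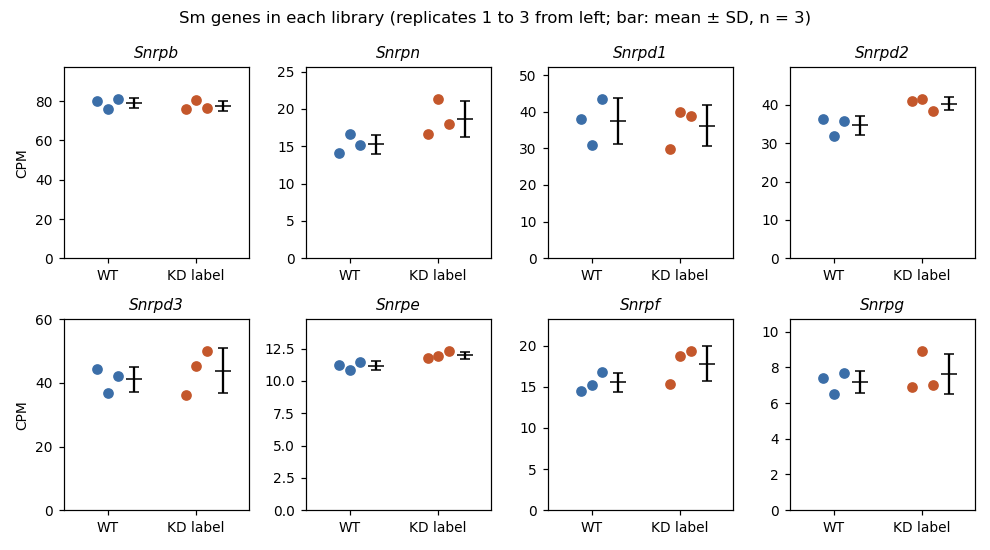
CPM (y axis, from 0) of the 8 Sm genes in each library, wild type in blue and knockdown-labelled in orange, with the mean and SD of 3 libraries beside the points. The groups of Snrpd2, Snrpe and Snrpn do not overlap, and those of the other 5 do. Of all tested genes 10.8% were higher and 12.4% lower without overlap.

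Snrpn encodes SmN, which takes the place of SmB in neurons and heart muscle and is expressed from the paternal allele only. It stood at 14.1, 16.6 and 15.1 CPM in wild type, against 16.6, 21.3 and 18.0 CPM under the knockdown label. The values did not overlap, by a narrow margin between wild type replicate 2 and knockdown-labelled replicate 1. Its log2 fold change was 0.29 (-0.02 to 0.59) with an edgeR adjusted p of 0.316. Of Snrpn and Snrpb together, Snrpn made up 13.1%, 15.8% and 13.8% of the FPKM in wild type replicates 1 to 3, against 15.8%, 18.47% and 16.8% in the other group. Its highest value was in knockdown-labelled replicate 2. That library also had the highest summed level of 20 heart muscle markers, with 14985 CPM, against 621, 744 and 3811 CPM in wild type and 5247 and 4505 CPM in the other knockdown-labelled libraries. All 20 of these markers were higher in the knockdown-labelled mean, and none was at 0 in all libraries. Of the 20, 15 were higher without overlap, as were 10.8% of all tested genes. Summed CPM of 14 neuron markers was 54.7, 41.5 and 68.4 in wild type, against 126, 63.0 and 153, with 13 of 14 positive. The mean log2 CPM of the heart muscle markers was 3.64, 4.02 and 6.37 in wild type, against 6.84, 8.62 and 6.57, so it did not overlap between the groups, and heart muscle level and genotype label cannot be told apart. With that level as a covariate the log2 fold change of Snrpn was 0.13 (unadjusted p = 0.57 in edgeR), and over all tested genes the number with an unadjusted p under 0.05 went from 3015 to 1325. The part of neurons in the Snrpn values was not tested. Snurf, which shares a transcript with Snrpn, was listed at 0 counts in every library, and how reads of shared exons were assigned is not given in the sources used here.

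Genes for assembly of the Sm ring were also examined. In a list of 23 genes (the SMN complex, Prmt5 and its partners, cap and import factors and the related Lsm14 genes) 0 passed at the adjusted threshold. An unadjusted p under 0.05 was reached by 0 on the higher and 2 on the lower side, beside 8.48% and 8.52% of all tested genes. The median log2 fold change was -0.02. Riok1, an adaptor that brings other substrates to Prmt5, stood at 44.7, 42.5 and 41.2 CPM in wild type, against 37.2, 37.1 and 35.3 CPM under the knockdown label (log2 fold change -0.23, edgeR adjusted p = 0.193). Gemin4, of the SMN complex, was scarce, with 1.11, 1.34 and 1.03 against 0.309, 0.425 and 0.717 CPM (-1.22, edgeR adjusted p = 0.204). In both genes all knockdown-labelled values lay below all wild type ones. Smn1, the core SMN gene, had 16.2, 15.7 and 17.7 against 16.3, 21.4 and 18.2 CPM, and Phax, an export adaptor of small nuclear RNAs, 33.0 ± 1.78 against 35.4 ± 1.86 CPM (SD, n = 3 each). These overlapped.

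The Lsm genes encode rings related to the Sm ring, which bind U6 RNA in the nucleus or decaying mRNA in the cytoplasm. Of 11 measured, 0 were called, 7 were positive and 4 negative, with a median of 0.02. Lsm4, a subunit of both rings, had the smallest p of all 80 genes. It stood at 27.2, 23.7 and 24.6 CPM in wild type, against 27.9, 33.1 and 32.5 CPM under the knockdown label. The groups did not overlap, and the log2 fold change was 0.31 (standard error 0.10, unadjusted p = 0.017, edgeR adjusted p = 0.211). Lsm10 and Lsm11 encode the subunits that replace SmD1 and SmD2, respectively, in the U7 particle, which trims histone mRNA. Lsm11 stood at 20.2, 18.3 and 21.0 CPM in wild type, against 15.4, 16.8 and 16.3 CPM under the knockdown label, again without overlap (-0.29, edgeR adjusted p = 0.221). Lsm10 had 14.2, 14.5 and 12.2 against 10.2, 11.2 and 13.1 CPM (-0.24, 95% interval -0.58 to 0.09), with overlap. The U7-specific pair thus had negative values, and neither passed the test. Lsm3 had 22.8 ± 2.79 against 26.4 ± 3.36 CPM and overlapped. Lsm1, the cytoplasmic subunit, had a log2 fold change of 0.02, and Lsm8, its nuclear counterpart, one of 0.02 as well.

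The proteins specific to the U1 and U2 particles showed little difference. Snrpa, Snrpc, Snrpa1 and Snrpb2 had log2 fold changes of 0.05, 0.01, -0.12 and -0.11, and 0 of 4 had an unadjusted p under 0.05. Their summed level was 201 ± 10.7 CPM in wild type and 198 ± 9.14 CPM in the knockdown-labelled lungs (SD, n = 3 each).

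The SF3 and U2AF genes encode the factors that recognise the branch point and the end of the intron. Of 12, 0 were called and the signs were even, with 6 positive and 6 negative. Sf3b2 stood at 291, 301 and 296 CPM in wild type, against 353, 331 and 328 CPM under the knockdown label. The groups did not overlap, with a log2 fold change of 0.19 (standard error 0.07, unadjusted p = 0.0251, edgeR adjusted p = 0.236). Sf3b1, the largest subunit and the most abundant of the 12 by count, had a log2 fold change of -0.02 (95% interval -0.24 to 0.21). U2af1 and U2af2, which bind the 3′ splice site and its pyrimidine tract, had -0.03 and 0.02. U2af1l4, a paralog of U2af1, stood at 5.18 ± 0.951 against 6.24 ± 0.773 CPM (0.27, 95% interval -0.22 to 0.75). It is overlapped by Psenen on the other strand and by Gm49396 on its own, and since no strand setting is given its counts are uncertain.

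The Prpf genes encode proteins of the U4/U6 and U5 particles and of the Prp19 complex, among others. Of 13, 0 had an unadjusted p under 0.05, and log2 fold changes ran from -0.08 to 0.14. Prpf3, a U4/U6 protein, had the smallest p, with 38.7, 37.5 and 36.8 against 37.1, 43.7 and 43.9 CPM. Prpf8 had a log2 fold change of -0.08 (95% interval -0.24 to 0.09). Other core spliceosome genes, a list of 46 outside the rule, had a median of -0.003 and 0 at the adjusted threshold. An unadjusted p under 0.05 was reached by 3 on the higher and 0 on the lower side, beside 8.48% and 8.52% of all tested genes. Ppil1, an isomerase of the active spliceosome, had 17.1, 17.2 and 20.2 against 19.4, 28.3 and 26.7 CPM, with overlap. Cdc5l, of the Prp19 complex, had 55.2, 48.0 and 48.2 against 57.5, 58.4 and 62.5 CPM, without overlap (edgeR adjusted p = 0.238). Usp39 (36.3 ± 0.174 against 33.2 ± 2.50 CPM) and Isy1 (18.6 ± 0.415 against 16.7 ± 1.15 CPM) led the lower side, with unadjusted p-values of 0.137 and 0.138. Of 10 genes of the minor spliceosome, which removes a rare class of introns, 0 had an unadjusted p under 0.05. Their log2 fold changes ran from -0.13 (Snrnp35) to 0.14 (Pdcd7), with Rnpc3 at 0.11 and Zrsr1 at -0.09. In the exon junction complex, which marks spliced mRNA, 0 of 10 had an unadjusted p under 0.05. Of the 10, 8 were positive and 2 negative, while 47.1% of all tested genes were negative. Without overlap 4 of the 10 were higher and 0 lower, beside 10.8% and 12.4% of all tested genes. Eif4a3, its core helicase, stood at 70.0, 66.4 and 62.3 against 72.9, 74.1 and 72.1 CPM, and Pnn at 220 ± 4.66 against 238 ± 11.5 CPM, both without overlap. Casc3 and Sap18 had -0.07 and -0.08.

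The SR genes had 0 of 11 called and 2 with an unadjusted p under 0.05, both lower, beside 8.52% of all tested genes on that side. Srsf10 encodes an SR protein that acts as a repressor when dephosphorylated. It stood at 193, 202 and 192 CPM in wild type, against 178, 177 and 174 CPM under the knockdown label. The groups did not overlap, with a log2 fold change of -0.15 (standard error 0.06, edgeR adjusted p = 0.278). Srsf3, the smallest SR protein and a splicing and export factor, stood at 280, 291 and 276 against 217, 256 and 259 CPM (-0.21, standard error 0.09, edgeR adjusted p = 0.284). Its lowest value was in knockdown-labelled replicate 1. Srsf2 had 279 ± 10.9 against 298 ± 12.9 CPM, with overlap (0.09). Srsf1, the founding member, had -0.06 (95% interval -0.24 to 0.12). Among 8 kinases that phosphorylate SR proteins the adjusted threshold was passed by 0 and an unadjusted p under 0.05 by 1, Srpk3. It was on the higher side, as were 8.48% of all tested genes at that p, and is described with the muscle genes. Clk1 had 403, 413 and 386 CPM in wild type, against 590, 407 and 383 CPM under the knockdown label, high in replicate 1 alone. Srpk1 and Srpk2 had log2 fold changes of -0.001 and -0.05.

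The hnRNP genes, whose products coat nascent RNA, had 0 of 20 called. Of the 20, 3 were positive and 17 negative, with a median of -0.08, while 47.1% of all tested genes were negative. With library totals that left out erythroid, heart and mitochondrial genes, 13 of the 20 were negative, with a median of -0.05. That setting also went without the TMM scaling factors of the main fit, and the parts of both changes were not separated. None of the 20 had an unadjusted p under 0.05. Hnrnpr stood at 193, 179 and 185 CPM in wild type, against 174, 169 and 158 CPM under the knockdown label, and Hnrnpf at 181, 176 and 173 against 167, 157 and 160 CPM. Hnrnpk, a C-rich RNA binder, stood at 441, 423 and 432 against 408, 411 and 378 CPM. In these 3 genes the groups did not overlap, with log2 fold changes of -0.16, -0.13 and -0.12 and edgeR adjusted p-values of 0.302, 0.328 and 0.453. Hnrnpl was also lower without overlap (log2 fold change -0.08). Without overlap 4 of the 20 were thus lower and 1 higher, beside 12.4% and 10.8% of all tested genes. Hnrnpll (120 ± 6.48 against 109 ± 7.04 CPM), Hnrnpa3 (156 ± 7.72 against 142 ± 7.69 CPM) and Hnrnph2 (130 ± 3.69 against 120 ± 6.96 CPM) overlapped. Hnrnpul1 was the gene of this group on the higher side without overlap, by a narrow margin, at 246, 242 and 244 against 258, 271 and 246 CPM. The most abundant, Hnrnpa2b1, had a log2 fold change of -0.01 (95% interval -0.19 to 0.16). Summed over the 20 genes the level was 6475 ± 112 CPM in wild type and 6253 ± 160 CPM in the knockdown-labelled lungs (SD, n = 3 each). The ranges overlapped narrowly, since wild type replicate 2 had 6347 CPM and knockdown-labelled replicate 2 had 6351.

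Over all 80 genes the groups did not overlap in 6 on the higher and 7 on the lower side, together 16.2%. Of all tested genes 10.8% were higher and 12.4% lower without overlap, together 23.2%. The 6 were Sf3b2, Lsm4, Hnrnpul1, Snrpd2, Snrpe and Snrpn, and the 7 were Hnrnpl, Hnrnpk, Srsf10, Hnrnpf, Lsm11, Hnrnpr and Srsf3. The share of all counts that fell on the 80 genes was 1.31%, 1.28% and 1.33% in wild type, against 1.33%, 1.27% and 1.28%.

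Some genes differed between single libraries more than between groups. Hnrnph3 had the largest spread inside the groups, at 98.1, 58.3 and 90.8 CPM in wild type, against 70.0, 106 and 55.4 CPM under the knockdown label. Rufy2, which overlaps it on the other strand, stood at 38.1, 17.1 and 36.7 and at 20.7, 38.7 and 18.496 CPM, high and low in the same libraries. The strand setting is not given, so reads in the stretch that the 2 genes share cannot be told apart. Of the 80 genes, 20 were overlapped on the other strand by a gene with a mean count of at least 10. Among them was Prpf6, overlapped by Zfp512b with a mean count of 1910.7 beside 1147.7. Rnps1, a splicing activator of the exon junction complex, was low in wild type replicate 2 (34.1 CPM) and knockdown-labelled replicate 2 (37.1 CPM) and between 69.5 and 78.1 CPM in the other 4 libraries. Knockdown-labelled replicate 1 stood apart in several genes. It had the highest Prpf18 (133 CPM, against 78.6 to 104 in the others) and the highest Srsf5 (972 CPM, against 752 to 864), together with the high Clk1 given above. It had the lowest value of the 6 libraries in 23 of the 80 genes, or 28.7%, and in 19.4% of all tested genes. In the same library the summed level of 12 proliferation markers was lowest, with 457 CPM against 623 to 886 CPM in the others, and its part in these values was not tested. Hnrnph3, Rnps1, Prpf18, Srsf5 and, among the muscle genes, Rbm20, with Srrm4 and Khdrbs3, were picked after their values were seen. So were Tra2a, Mbnl2, Tia1, Nova1, Fubp1 and Ptbp3, given below. The U1 and U2 genes, Lsm1, Lsm8, Sf3b1, U2af1, U2af2 and Srsf1 were named for their roles.

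**Figure D4:**
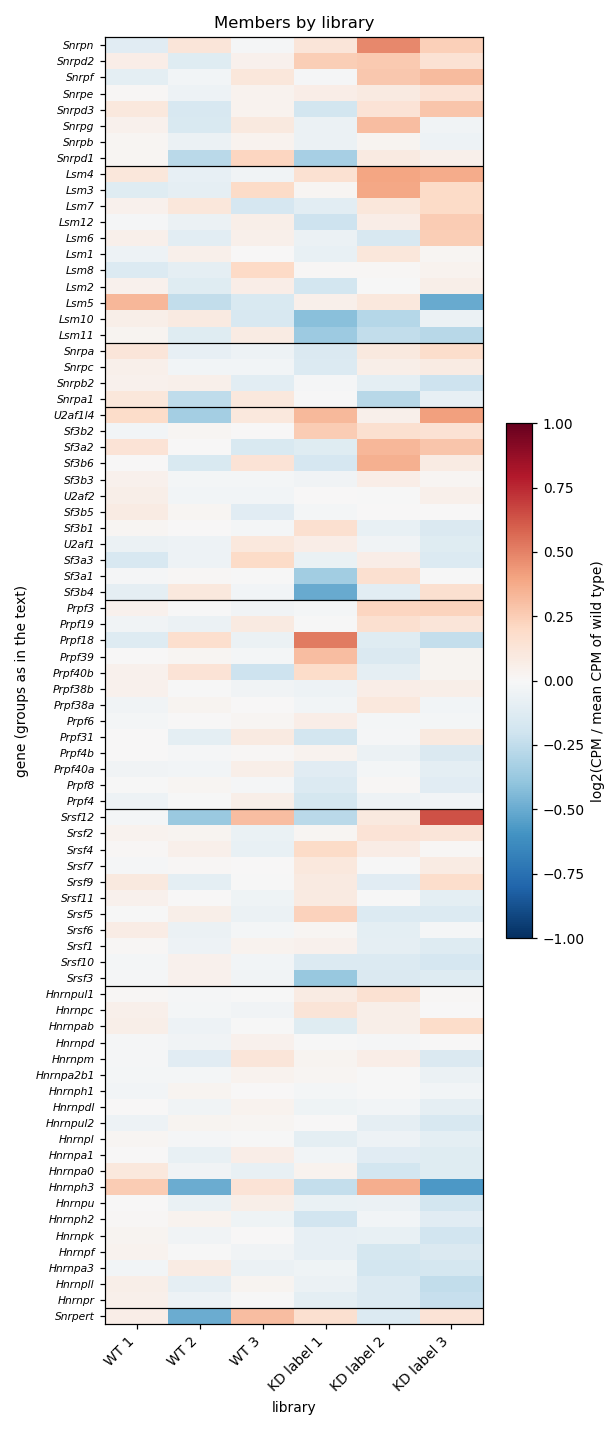
Log2 ratio of CPM to the mean of the 3 wild type libraries (colour) for each of the 80 genes (rows, in groups separated by lines: Sm, Lsm, U1 and U2 specific, SF3 and U2AF, Prpf, SR, hnRNP and Snrpert) in each of the 6 libraries (columns). Most cells are pale, and the strongest colours are in single libraries, as for Hnrnph3 and Prpf18.

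Regulators of tissue-specific splicing, a list of 44 genes outside the rule, were also tested. None passed at the adjusted threshold in edgeR, and 5 higher and 8 lower had an unadjusted p under 0.05. Together these were 29.5% of the list, beside 17.0% of all tested genes (8.48% higher and 8.52% lower). Without overlap 5 of the 44 were higher and 13 lower, beside 10.8% and 12.4% of all tested genes. The 8 on the lower side were Mbnl3, Nova2, Tra2a, Mbnl2, Tia1, Nova1, Fubp1 and Ptbp3. Tra2a stood at 276, 282 and 270 CPM in wild type, against 230, 235 and 233 CPM under the knockdown label (-0.25, edgeR adjusted p = 0.150). The last 5 had log2 fold changes from -0.44 (Nova1) to -0.17 (Ptbp3). Mbnl3, a muscleblind protein of fetal tissue, stood at 28.0, 26.2 and 28.1 CPM in wild type, against 13.3, 19.5 and 15.0 CPM under the knockdown label. Its groups were far apart, with a log2 fold change of -0.79 (standard error 0.15, edgeR adjusted p = 0.116, DESeq2 adjusted p = 0.000955). Nova2, a regulator known from neurons and vessel endothelium, stood at 35.8, 34.7 and 31.4 against 21.6, 27.2 and 23.7 CPM (-0.49, edgeR adjusted p = 0.137, DESeq2 adjusted p = 0.0229). Summed CPM of 6 endothelial markers was 2283 to 2571 in wild type and 1544 to 1978 in the knockdown-labelled libraries. Of the 6, 5 were lower without overlap, as were 12.4% of all tested genes. The part of endothelium in the Nova2 values was not tested.

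The 5 genes on the higher side were Rbm38, Rbm24, Srrm4, Rbm20 and Khdrbs3. Rbm24, a regulator of muscle splicing, stood at 9.21, 9.89 and 32.2 CPM in wild type, against 42.5, 108 and 54.6 CPM under the knockdown label (log2 fold change 1.99, edgeR adjusted p = 0.183). Rbm20, which controls titin splicing in heart, had 3.09, 3.81 and 19.7 against 26.2, 92.2 and 27.3 CPM. Srpk3, a muscle kinase of SR proteins, had 3.21, 2.68 and 9.29 against 9.76, 15.4 and 15.6 CPM (1.42, edgeR adjusted p = 0.222, DESeq2 adjusted p = 0.0241). In all 3 genes wild type replicate 3 was the highest of its group, as it was for the heart muscle markers. With the heart muscle level as a covariate, which cannot be told apart from the label, the log2 fold changes were 0.45 for Rbm24, 0.16 for Rbm20 (2.44 without it) and 0.47 for Srpk3. Rbm38 stood at 16.5, 16.1 and 26.6 against 28.5, 50.6 and 38.2 CPM (0.98, edgeR adjusted p = 0.172, DESeq2 adjusted p = 0.00541), with the same library highest in wild type. Srrm4, a neural splicing regulator, was scarce, at 0.989, 1.27 and 1.67 against 3.89, 1.70 and 4.25 CPM, without overlap (1.33, edgeR adjusted p = 0.198). Its 2 highest values were in knockdown-labelled replicates 1 and 3, the libraries with the highest neuron marker sums, and the part of neurons in it was not tested. Khdrbs3 stood at 13.5, 11.4 and 15.5 against 14.8, 23.1 and 19.1 CPM, with overlap (0.49, edgeR adjusted p = 0.266). Over all genes DESeq2 made 814 calls and edgeR 6, so the DESeq2 values given here come from a far longer list of calls. All 141 genes of the 6 further splicing lists were tested, and 19 of them, or 13.5%, had an unadjusted p under 0.05, beside 17.0% of all tested genes. The tissue-specific regulators gave 13 of these, and the other 5 lists gave 6 of 97 genes, or 6.19%.

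**Figure D5:**
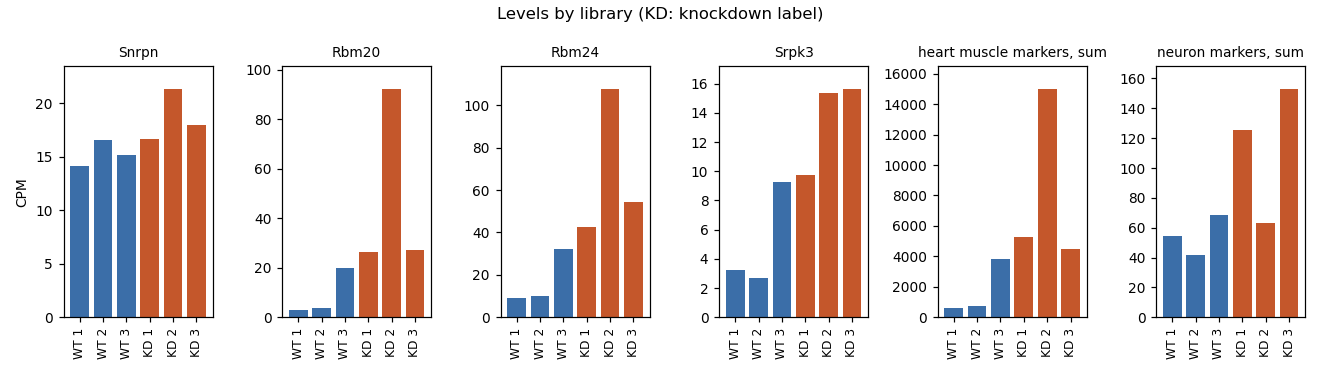
CPM (y axes, each from 0) in each library of Snrpn, Rbm20, Rbm24 and Srpk3 and of the summed heart muscle and neuron markers, wild type in blue and knockdown-labelled in orange. Rbm20, Rbm24 and the heart muscle sum are highest in knockdown-labelled replicate 2, and the neuron sum in replicates 1 and 3 of that group.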

How the data were processed

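Poly(A) RNA-seq of 6 whole lungs was analysed, 3 per genotype label. The deposited table holds a raw count for each gene in each library. It also holds FPKM, per the file headers, which recomputation from count, exonic size and library total matched within 0.005. HTSeq 0.6.1, cutadapt 1.9.1 and HISAT2 2.0.1 are listed, with no roles, per the submitters' processing notes. No source used here gives the build or the strand setting, and table coordinates are printed with no build.

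Counts were tested with edgeR 4.0.16 (R 4.3.3) on the whole table, with filterByExpr, TMM scaling and a quasi-likelihood test with the group as the only term. Calls used a two-sided Benjamini-Hochberg adjusted p under 0.05 over 17728 genes. The fits were first checked on simulated counts. CPM uses the TMM factors, and the common dispersion came to a biological coefficient of variation of 21.8%. An exact permutation test of 3 against 3 cannot go below 0.1 and was not used.

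The members, gene lists and tests were chosen with earlier results of these data known. Named genes are the Sm genes, the 10 members with the smallest p in each direction, the highest and lowest of each group per length, up to 2 genes per direction in each further list, and Prmt5. One list entry, Cenatac, matched no symbol. Alternatives were other scalings, no filter, robust edgeR, DESeq2 1.42.0, limma 3.58.1 on log2(FPKM + 1) or + 0.1 at a mean FPKM of at least 1, sex or heart muscle level as a covariate, and leaving out each library. Among the scalings, totals without erythroid, heart and mitochondrial genes were used with no TMM factors. A planned count of arginine-glycine pairs in the proteins was not made here.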

Additional observations from a re-analysis of the deposited data

How the results depend on the processing

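No member was called in either direction in any of the 15 alternatives, with a smallest adjusted p of 0.153 (DESeq2) to 0.658 (heart muscle covariate). Not all of these could have given another answer. With the sex covariate, and in most fits that dropped a library, 0 genes of the whole table were called, so no member could be. The heart muscle covariate (1 call over all genes) and limma on log2(FPKM + 0.1) (3 calls) left little room for one. DESeq2, with 814 calls, and the setting with no filter, with 81, left more. The median log2 fold change of the members stayed within 0.056 of the reported value, the spread between libraries, in each of the 15 alternatives. With a library left out it ranged from -0.0218 to 0.0111.

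Counts were less stable. Over all genes 6 were called, against 81 with no filter, 814 in DESeq2, 15 in robust edgeR, 3 in limma on log2(FPKM + 0.1), 1 with the heart muscle covariate, 0 with the sex covariate (2524 at an unadjusted p under 0.05) and 0 to 17 with a library left out. Members at an unadjusted p under 0.05 were 3 higher and 3 lower. With the heart muscle covariate 0 were higher, and 1 was lower with the sex covariate or with totals without erythroid, heart and mitochondrial genes. The setting with such totals also went without TMM factors, and the parts of both changes were not separated. It moved the share of higher genes among all at that p from 49.9% to 61.2%. With a library left out 0 to 6 members were higher and 0 to 2 lower. The 6 came without knockdown-labelled replicate 1, and no member was higher without wild type replicate 2 or lower without wild type replicate 1 or 3.

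Signs turned only in uncalled values. With the heart muscle covariate the log2 fold change was -0.0543 for Lsm1, -0.115 for Lsm3, -0.176 for Lsm8, 0.0383 for Sf3b1, -0.0727 for Smn1, -0.185 for Snrpg and 0.126 for Srsf5. With the sex covariate the log2 fold change was -0.224 for Rnps1, 0.00230 for Srpk1 and -0.00406 for U2af2. With the changed totals and no TMM factors the log2 fold change was 0.0199 for Hnrnpa2b1, 0.00766 for Prpf31, 0.0179 for Sf3b1 and 0.00666 for Snrpb. In the same setting it was 0.0325 for Srpk1, 0.0280 for Srsf5 and 0.00447 for U2af1. With median-of-ratios scaling the log2 fold change was 0.000471 for Srpk1. In limma with 1 added the log2 fold change was 0.00990 for Srpk1. In limma with 0.1 added the log2 fold change was 0.0113 for Srpk1. With a library left out the ranges were -0.0102 to 0.315 for Clk1, -0.0228 to 0.0109 for Hnrnpa2b1, -0.397 to 0.0983 for Hnrnph3, -0.0254 to 0.0767 for Lsm1, -0.0446 to 0.137 for Lsm8, -0.134 to 0.00687 for Prmt5, -0.169 to 0.235 for Prpf18 and -0.0930 to 0.0549 for Prpf31. They were -0.220 to 0.316 for Rnps1, -0.119 to 0.00277 for Sap18, -0.100 to 0.0460 for Sf3b1, -0.0160 to 0.150 for Snrpa, -0.0330 to 0.0823 for Snrpc, -0.171 to 0.0825 for Snrpd1, -0.0108 to 0.222 for Snrpd3 and -0.0489 to 0.153 for Snrpg. They were -0.0413 to 0.0541 for Srpk1, -0.116 to 0.00549 for Srpk2, -0.0772 to 0.405 for Srsf12, -0.129 to 0.0577 for Srsf5 and -0.0672 to 0.0302 for U2af1.

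Among the named genes followed through the alternatives, DESeq2 called Mbnl3, Nova2, Rbm38 and Srpk3, which edgeR did not. Tra2a, Mbnl2, Tia1, Nova1, Fubp1 and Ptbp3 were not followed. The cause was not tested. No paired analysis was possible because the labels give the groups no shared replicate numbers. With 3 libraries per group, differences inside the stated intervals were not excluded.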
